A study of Mus musculus with 12 samples.

Results

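The miR-146 family of the mouse consists of miR-146a and miR-146b, whose hairpins each give a 5p and a 3p arm, and its 4 mature miRNAs were followed here through small RNA libraries of adipose tissue extracellular vesicles (EVs, membrane particles that cells release) and of hippocampus. The members were chosen by name, as mmu-miR-146a-5p, mmu-miR-146a-3p, mmu-miR-146b-5p and mmu-miR-146b-3p, and all 4 were listed in both count tables, among 1084 entries in EVs, 46 of them predicted small RNAs, and 1158 in hippocampus. That choice was made with earlier results of these data known, and the p-values and ranks of the members do not allow for it. The 12 libraries fell into 4 groups of 3, namely EVs of mice fed a high-fat diet (HFD), EVs of mice fed chow, hippocampus of HFD mice and hippocampus of chow mice. All groups were male wild-type (WT) C57BL/6J mice that had eaten their diet for 12 weeks, and the sources used here give neither their age nor the composition of the diets. RNA was taken up in Trizol, and the hippocampus libraries are labelled as brain. The hippocampal chow libraries are the columns headed LFD, an assignment inferred from the chow diet being the other one in the labels. Nothing in the labels ties a library to its own animal, so the p-values reflect the spread among these libraries alone, and that spread may be technical.

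MicroRNAs are short RNAs that are cut from a hairpin precursor, loaded into Argonaute proteins and guided to messenger RNAs mainly by a seed near their 5′ end. The gene of miR-146a is switched on when Toll-like or interleukin-1 receptors activate the transcription factor NF-kB. Its 5p arm represses the messages of TRAF6 and IRAK1, a ubiquitin ligase and a kinase that carry the signal from those receptors, and so forms a negative feedback on the pathway. miR-146b has the same seed and is made from another chromosome. In both, the 5p arm is the guide strand and the 3p arm the passenger strand that is mostly discarded. In brain, miR-146a is known from microglia and astrocytes, and in adipose tissue from macrophages and adipocytes under inflammatory stimuli.

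The 4 mature sequences are shown because the 5p arms, which carry nearly all counts, can hardly be told apart, with the seed (bases 2 to 8 from the 5′ end) in capitals. They were taken from RefSeq (GRCm38.p6), where all 4 names matched.
mmu-miR-146a-5p: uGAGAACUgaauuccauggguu
mmu-miR-146b-5p: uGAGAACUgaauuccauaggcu
mmu-miR-146a-3p: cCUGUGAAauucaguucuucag
mmu-miR-146b-3p: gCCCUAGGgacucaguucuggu
The 5p arms were identical at 20 of 22 positions and shared their first 17 bases. They differed by G18A and U21C, where the base of miR-146a-5p comes first and positions count from 1 at the 5′ end. The 3p arms were identical at 4 of 22 positions. Among the 1679 mature miRNAs of the RefSeq table, the seed GAGAACU occurred in miR-146a-5p and miR-146b-5p alone.

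The hairpins are shown with the mature arms in capitals, to place those arms in the genome.
Mir146: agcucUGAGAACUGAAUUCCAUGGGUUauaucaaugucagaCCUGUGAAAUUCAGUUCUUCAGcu
Mir146b: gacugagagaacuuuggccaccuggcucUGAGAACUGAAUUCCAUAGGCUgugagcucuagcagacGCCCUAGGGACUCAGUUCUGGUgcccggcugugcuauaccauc
Mir146 lies at chr11:43374397-43374461 on the minus strand (GRCm38.p6) and spans 65 bases. In GENCODE M21 no other gene covers it, and the nearest is the long non-coding gene Gm12148, 11021 bases away. Mir146b lies at chr19:46342762-46342870 on the plus strand and spans 109 bases. It sits within the protein-coding gene Mfsd13a on the same strand, where 1 of 5 transcripts spans it with an intron and no transcript has an exon over it.

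The complement of the seed followed by A, AGTTCTCA, is the 8-base match that pairs with both 5p arms, and its positions in the messages of the feedback's known targets are shown with the 8 bases in capitals. The motif was searched on the transcript strand of the longest 3′ untranslated region of each gene in GENCODE M21 (GRCm38), where no other motif was searched.
Traf6, first match: ccgctctggtgttgAGTTCTCA
Traf6, next match: ccctggaaggcttaAGTTCTCA
Irak1, first match: gactcagaggtcaaAGTTCTCA
Irak1, next match: ttctcatgcttggaAGTTCTCA
The Traf6 stretches are chr2:101697945-101697966 and chr2:101698009-101698030 on the plus strand, and their 8-base matches start 460 and 524 bases after the stop codon. Traf6 held 4 matches in all in a region of 4170 bases. The Irak1 stretches are chrX:74015393-74015414 and chrX:74015377-74015398 on the minus strand. Their 8-base matches start 40 and 56 bases after the stop codon and were the 2 matches in a region of 1526 bases. The motif was present in 857 of 20998 genes (4.08%). In windows as long as that of Traf6 it was present in 13.4% of the 1293 genes that have such a window, and in windows as long as that of Irak1 in 4.42% of 7327 genes. A match is a description of letters, and no messenger RNA was measured here.

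Library totals lay between 1825488 and 5941955 counts in HFD EVs, between 2120171 and 2294878 in chow EVs, between 11143775 and 12874600 in HFD hippocampus and between 2331091 and 5723918 in chow hippocampus, so depth went with diet in hippocampus. The 3 HFD hippocampus columns were also blank in 5 rows where the chow columns were filled, and a 4th column headed HFD matched no sample and was not used. Whether the HFD and chow columns came from different runs or tables is not given in the labels or headers, and such a difference and diet cannot be told apart in any hippocampal comparison. Tests were run with edgeR's quasi-likelihood test over all miRNAs that passed a filter on low counts, and a miRNA is said to have risen or fallen, or to be called, at a Benjamini-Hochberg adjusted p under 0.05. Of the 4 members 3 were tested in each comparison, because miR-146a-3p fell under the filter. Levels are counts scaled to a common library total (CPM) after TMM scaling, which corrects for differences in composition between libraries. In EVs 13 miRNAs rose and 4 fell of 389 tested, and with library totals as the scale 33 rose and 5 fell. In hippocampus 24 rose and 41 fell of 552 tested, against 17 and 16 with library totals. Hippocampus libraries held the 4 neuronal miRNAs miR-124-3p, miR-128-3p, miR-218-5p and miR-9-5p at a sum of 270438 to 336271 CPM in HFD and 266391 to 444030 CPM in chow mice, while in EVs the same 4 summed to 2095 to 2616 CPM in HFD and 2018 to 3033 CPM in chow mice. Of the 4, miR-124-3p averaged 0.363 CPM in HFD and 0.427 CPM in chow EVs and was at 0 counts in at least 1 EV library, whereas miR-128-3p averaged 920 CPM in HFD and 1283 CPM in chow EVs, miR-218-5p 779 CPM in HFD and 1035 CPM in chow EVs, and miR-9-5p 655 CPM in HFD and 163 CPM in chow EVs.

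miR-146a-5p rose in EVs of HFD mice. Its level was 14144, 13547 and 9044 CPM in HFD EV libraries 1, 2 and 3, against 4440, 5344 and 5364 CPM in chow EV libraries 1, 2 and 3. All 3 HFD libraries lay above all 3 chow libraries, and HFD library 3 was the lowest of its group. The HFD to chow log2 fold change was 1.28 (SE 0.25, 2.43-fold), with an adjusted p of 0.0364 by edgeR's quasi-likelihood test. In order of abundance within a library, miR-146a-5p ranked between 12 and 18 in HFD EVs and between 20 and 26 in chow EVs. In bulk libraries such as these, more vesicles or cells of a kind and more miRNA in each of them cannot be told apart.

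miR-146b-5p, the other guide strand, did not pass the test in EVs. It was at 7783, 7246 and 4516 CPM in HFD EV libraries 1, 2 and 3, against 3343, 2370 and 4534 CPM in chow EV libraries 1, 2 and 3. HFD library 3 lay just below chow library 3, so the groups overlapped. The log2 fold change was 0.93 (SE 0.33), with an approximate 95% interval of 0.28 to 1.58 and an adjusted p of 0.124. The lowest HFD library was number 3 for both guide strands, whereas the highest chow library was number 3 for both and the lowest was number 1 for miR-146a-5p and number 2 for miR-146b-5p.

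The passenger strands were near the limit of counting in EVs. miR-146b-3p had 37, 8 and 6 counts in HFD EV libraries 1, 2 and 3, against 11, 14 and 13 counts in chow EV libraries 1, 2 and 3. Scaled to CPM these were 5.73, 3.70 and 2.82 in HFD and 5.32, 5.59 and 8.68 in chow EVs, and the groups overlapped. The log2 fold change was -0.60 (SE 0.49, adjusted p = 0.490, edgeR), and it was -0.97 without HFD library 1, -0.27 without HFD library 3 and -0.25 without chow library 3. miR-146a-3p had 0, 2 and 7 counts in HFD EV libraries and 1 count in each chow EV library, a pooled HFD to chow ratio of 2.05 with an exact 95% interval of 0.511 to 11.7 that covers counting error only.

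Of the 3 members tested in EVs, 1 was called, where 4.37% of all tested miRNAs were called and 3.34% were called higher in HFD. Groups did not overlap for miR-146a-5p alone among these 3, and for 32.6% of all tested miRNAs. The call of miR-146a-5p depended on single libraries. Its adjusted p was 0.130 without HFD library 1, 0.169 without HFD library 2, 0.0280 without HFD library 3, and 0.117, 0.0758 and 0.0537 without chow libraries 1, 2 and 3. Its log2 fold change was 1.16 to 1.60 in these 6 fits. With library totals as the scale, miR-146b-5p also passed, with 1.30 on the log2 scale (adjusted p = 0.0295). That scale moved the median of all EV miRNAs to 0.16, against -0.13 with TMM, and relative to the median of its own scale miR-146a-5p stood at 1.42 with totals and 1.41 with TMM, and miR-146b-5p at 1.14 with totals and 1.06 with TMM.

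Taken as a share of all counts, the 4 miR-146 arms made up 2.38%, 2.47% and 1.47% of HFD EV libraries 1, 2 and 3, against 0.701%, 0.869% and 0.700% of chow EV libraries 1, 2 and 3. A share uses the library total as its scale, without TMM, and is not corrected for differences in composition. The means were 2.10 ± 0.555% in HFD and 0.757 ± 0.0973% in chow EVs (SD, n = 3 each), and the groups did not overlap. The difference of 1.35 percentage points had an exact two-sided permutation p of 0.1, the smallest that 3 against 3 libraries allow. The most abundant EV miRNA, miR-148a-3p, took 21.02% to 26.44% of HFD and 34.10% to 57.19% of chow EV libraries. With miR-148a-3p left out of the total, the difference of the miR-146 share was 1.38 percentage points (exact permutation p = 0.1).

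miR-146a-5p fell in hippocampus of HFD mice. Its level was 76.9, 76.0 and 70.9 CPM in HFD hippocampus libraries 1, 2 and 3, against 182, 126 and 206 CPM in chow hippocampus libraries 1, 2 and 3. The 3 HFD libraries lay close together and below all 3 chow libraries, which were more spread. The log2 fold change was -1.20 (SE 0.24, 2.29-fold lower), with an adjusted p of 0.0242 by edgeR's quasi-likelihood test. These levels rested on 934, 957 and 983 counts in HFD and on 827, 718 and 363 counts in chow hippocampus libraries. With all 6 libraries thinned to the smallest total, the log2 fold change was -1.29 (adjusted p = 0.0194).

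miR-146b-5p was the main miR-146 of hippocampus and did not pass the test there. It was at 1232, 1027 and 1145 CPM in HFD hippocampus libraries 1, 2 and 3, against 1032, 1245 and 2185 CPM in chow hippocampus libraries 1, 2 and 3. The groups overlapped, with HFD library 2 just below the lowest chow library, and chow library 3 was far above the other 5. The log2 fold change was -0.39 (SE 0.28, approximate 95% interval -0.94 to 0.16, adjusted p = 0.383). Without chow library 3 it was 0.052 (adjusted p = 0.850).

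miR-146b-3p had 18, 18 and 22 counts in HFD hippocampus libraries 1, 2 and 3, against 5, 5 and 0 counts in chow hippocampus libraries 1, 2 and 3. Its CPM values did not overlap, at 1.43 to 1.59 in HFD and 0 to 1.10 in chow hippocampus, but the log2 fold change of 0.89 (SE 0.55) had an adjusted p of 0.316. The shallowest chow library had no count, which by the limit of 3 counts allows up to 1.29 CPM before scaling. TMM scaling divides by 0.755 in this library and so raises that limit, and the lack of overlap is not secure at the limit. miR-146a-3p had 1 count in HFD library 1 and 0 in the other 5 hippocampus libraries.

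Of the 3 members tested in hippocampus, 1 was called, against 11.8% of all tested miRNAs called and 7.43% called lower in HFD. Groups did not overlap for 2 of the 3, miR-146a-5p and, with chow library 3 at 0 counts, miR-146b-3p, and for 37.3% of all tested miRNAs. The adjusted p of miR-146a-5p was 0.0919, 0.0721 and 0.138 without HFD libraries 1, 2 and 3, 0.0537 without chow library 1, 0.0331 without chow library 2 and 0.0156 without chow library 3. With library totals as the scale it was 0.0600, at a log2 fold change of -1.02. The miR-146 arms together made up 0.128 ± 0.00700% of counts in HFD and 0.151 ± 0.0259% in chow hippocampus (SD, n = 3 each), which overlapped (exact two-sided permutation p = 0.2). The difference was -0.023 percentage points, and -0.0076 without chow library 3. The fall of miR-146a-5p and the difference in depth and blank rows between the HFD and chow columns cannot be told apart.

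**Figure D1:**
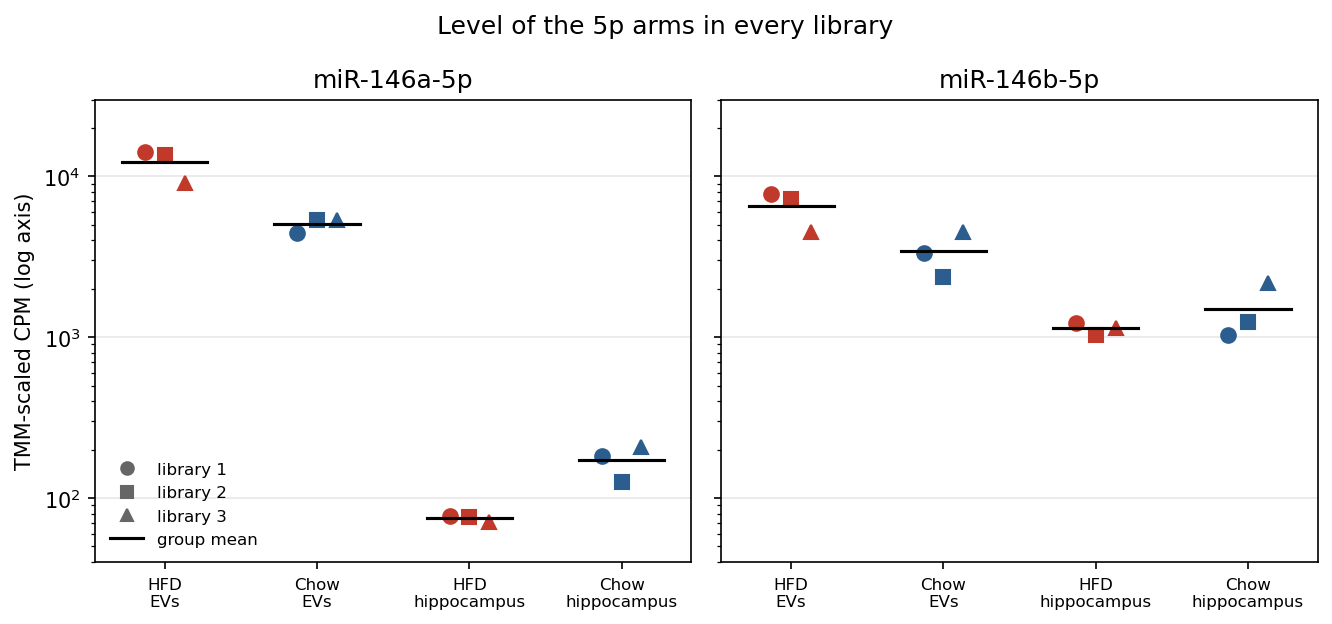
TMM-scaled CPM on a log axis of miR-146a-5p (left) and miR-146b-5p (right) in each of the 12 libraries, with marker shape for the library number and a line at the mean of each group of 3. For miR-146a-5p the HFD points lie above the chow points in EVs and below them in hippocampus, and for miR-146b-5p the diets overlap in both.

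The diet effect on miR-146a-5p differed between EVs and hippocampus. In a fit of all 12 libraries, the log2 difference of the diet effects (EVs minus hippocampus) was 2.54 (SE 0.37), with an adjusted p of 0.00108 by edgeR's quasi-likelihood test, the second lowest p of 519 shared miRNAs tested. For miR-146b-5p that difference was 1.36 (SE 0.42, adjusted p = 0.0640), and for miR-146b-3p it was -1.30 (SE 0.81, adjusted p = 0.353). Thus 1 of 3 members was called, where 5.78% of all tested miRNAs were called, 25 above 0 and 5 below, or 23 and 23 with DESeq2's size factors as the scale. miR-146a-5p kept its direction and its call under all 18 alternative settings tried, at 2.17 to 2.63 and adjusted p-values up to 0.0247. miR-146b-5p passed with library totals (1.47, adjusted p = 0.0304), without HFD EV library 3 (1.55, adjusted p = 0.0427) and without chow hippocampus library 1 (1.51, adjusted p = 0.0406). Called higher in HFD EVs and also lower in HFD hippocampus were 2 miRNAs, miR-146a-5p and miR-30b-3p. In the hippocampal part of these differences, diet cannot be told apart from the depth and blank rows of the columns.

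**Figure D2:**
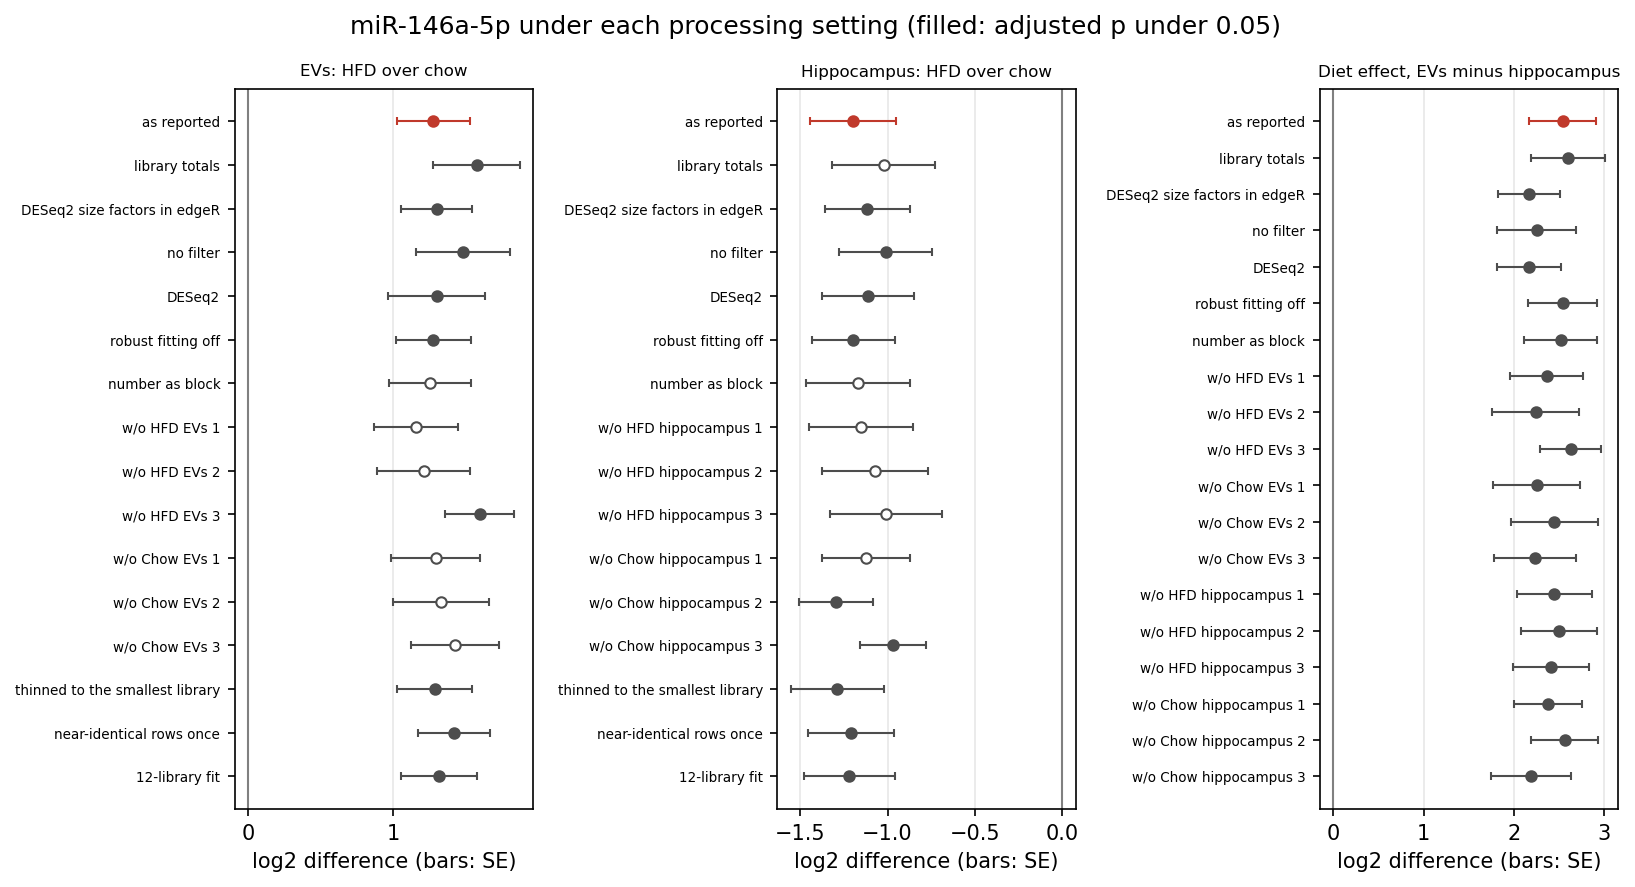
Log2 difference of miR-146a-5p (x axis, bars of 1 SE) under each processing setting, for HFD over chow in EVs, for HFD over chow in hippocampus and for the diet effect in EVs minus that in hippocampus, with filled points where the adjusted p was under 0.05. No setting moved a point to the other side of 0, 6 alternatives are open in each of the first 2 panels, and all 18 of the last are filled.

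Both guide strands were higher in EVs than in hippocampus with either diet. On the scale of the 12-library fit miR-146a-5p averaged 13862 ± 3034 CPM in HFD EVs and 66.1 ± 4.99 CPM in HFD hippocampus, and 5554 ± 722 CPM in chow EVs and 154 ± 22.1 CPM in chow hippocampus (SD, n = 3 each). The EV to hippocampus log2 fold change was 7.71 (SE 0.35, adjusted p = 1.11e-10, edgeR) with HFD and 5.18 (SE 0.31, adjusted p = 2.02e-09, edgeR) with chow. The HFD contrast had the lowest p of all 519 miRNAs, and the chow contrast the second lowest.

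miR-146b-5p averaged 7373 ± 1915 CPM in HFD EVs and 1001 ± 33.4 CPM in HFD hippocampus, and 3724 ± 1077 CPM in chow EVs and 1302 ± 253 CPM in chow hippocampus. Its log2 fold change was 2.88 (SE 0.31, adjusted p = 4.82e-07) with HFD and 1.52 (SE 0.30, adjusted p = 0.000234) with chow. miR-146b-3p was also higher in EVs, by 1.85 (SE 0.51, adjusted p = 0.00345) on the log2 scale with HFD and by 3.14 (SE 0.62, adjusted p = 0.000233) with chow, but without HFD EV library 1 the HFD contrast was 1.43 (adjusted p = 0.0562). All 3 tested members were therefore called higher. Of all 519 miRNAs tested, 202 were called higher in EVs with HFD and 179 with chow. Calls in either direction made up 81.5% with HFD and 79.4% with chow. EVs and hippocampus came in separate tables that may have been made separately, and no spike-in ties their scales.

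Ordered by level, miR-146a-5p stood highest in HFD EVs, then in chow EVs, chow hippocampus and HFD hippocampus, and no 2 neighbouring groups overlapped in that order. miR-146b-5p followed the same order of means, but HFD and chow hippocampus overlapped. Its EV groups overlapped on the scale of the EV table, whereas on that of the 12-library fit HFD EVs began at 5177 CPM and chow EVs ended at 4867 CPM.

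The balance of the 2 paralogs was opposite in EVs and hippocampus. The ratio of miR-146a-5p to miR-146b-5p counts was 1.82, 1.87 and 2.002 in HFD EV libraries 1, 2 and 3, against 1.33, 2.25 and 1.18 in chow EV libraries 1, 2 and 3. It was above 1 in all 6 EV libraries, and the HFD values lay within the range of the chow values. The diet difference was 0.31 on the log2 scale (exact two-sided permutation p = 0.4), and 0.21, 0.60 and 0.13 without chow libraries 1, 2 and 3.

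In hippocampus the ratio was 0.0624, 0.0740 and 0.0619 in HFD libraries 1, 2 and 3, against 0.176, 0.101 and 0.0944 in chow libraries 1, 2 and 3. All 3 HFD values lay below all 3 chow values, a log2 difference of -0.85 with an exact two-sided permutation p of 0.1, the smallest possible. Without chow library 1, which had the highest ratio, that difference was -0.57. miR-146b-5p held 34.6 ± 1.12% of the 5p counts in HFD EVs, 39.8 ± 8.01% in chow EVs, 93.8 ± 0.599% in HFD hippocampus and 89.1 ± 3.53% in chow hippocampus (SD, n = 3 each). A ratio within a library does not depend on scaling, but the 2 sequences differ at 2 positions, the sources used here do not say how reads that match both were assigned, and the part of such reads in these ratios was not tested.

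**Figure D3:**
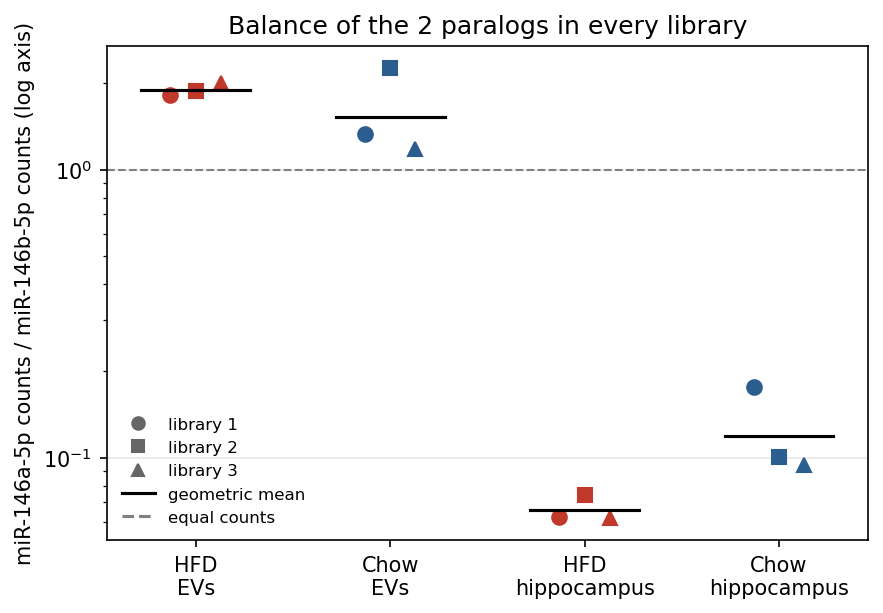
Ratio of miR-146a-5p to miR-146b-5p counts on a log axis in each of the 12 libraries, with marker shape for the library number, a line at the geometric mean of each group and a dashed line at equal counts. All 6 EV libraries lie between 1.18 and 2.25, and all 6 hippocampus libraries between 0.0619 and 0.176.

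The balance of the arms could be read for miR-146b in EVs, since the other 3p arms had 3 counts or fewer in 5 of 6 EV and 6 of 6 hippocampus libraries for miR-146a and in 1 of 6 hippocampus libraries for miR-146b. miR-146b had 1358, 1960 and 1603 5p counts per 3p count in HFD EV libraries 1, 2 and 3, against 628, 424 and 523 in chow EV libraries 1, 2 and 3. All HFD values lay above all chow values, a log2 difference of 1.63 (exact two-sided permutation p = 0.1, the smallest possible). Pooled over libraries, the HFD to chow ratio of counts per total was 2.62 for the 5p arm, with a counting interval of 2.58 to 2.66, and 0.915 for the 3p arm, with a counting interval of 0.590 to 1.43. The arm ratios rest on 3p counts of 6 to 37 per library.

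Among 15 other miRNAs known to be induced through Toll-like receptor or NF-kB signalling, 13 were tested in EVs, 2 rose, none fell and 11 did not pass. The median log2 fold change of the 13 was 0.65, beside -0.13 for all 389 miRNAs tested, of which 3.34% were called higher. The lists of NF-kB miRNAs were chosen with earlier results of these data known, so their counts and medians are a description. miR-21a-5p, an abundant miRNA raised in many inflamed tissues, averaged 107305 ± 5286 CPM in HFD and 42292 ± 9240 CPM in chow EVs, or 1.34 on the log2 scale (SE 0.22, adjusted p = 0.0217). miR-9-3p, the opposite arm of the neural miR-9-5p, averaged 706 ± 100.1 CPM in HFD and 67.3 ± 31.9 CPM in chow EVs, or 3.39 on the log2 scale (SE 0.42, adjusted p = 0.0196).

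miR-155-5p, a miRNA widely used as a sign of macrophage activation, differed by 0.17 on the log2 scale in EVs (SE 0.62, adjusted p = 0.924), at 438 ± 260 CPM in HFD and 390 ± 292 CPM in chow EVs. Without HFD EV library 2 its value was -0.40, and without chow EV library 3 it was 1.07. miR-125a-5p and miR-99b-5p, which are made from a shared cluster, had log2 fold changes of -0.80 (SE 0.53) and -0.01 (SE 0.33) and did not pass. miR-125a-5p was at -0.32 without chow EV library 1 and at -1.09 (adjusted p = 0.0574) without chow EV library 3. The sign of miR-99b-5p depended on the scale and was 0.24 with library totals.

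Of 8 miRNAs known to act on components of the NF-kB pathway, 7 were tested in EVs, 1 rose and none fell, with a median log2 fold change of -0.13. Of all miRNAs tested there, 3.34% were called higher. The riser was miR-223-3p, a miRNA of granulocytes and macrophages, at 168 ± 23.1 CPM in HFD and 19.6 ± 14.1 CPM in chow EVs (log2 fold change 3.12, SE 0.55, adjusted p = 0.0226). The others named by abundance did not pass. miR-10a-5p, which acts on the MAP3K7 branch in human endothelium, was at -0.58, miR-181b-5p, which represses the importin that carries NF-kB into endothelial nuclei, at -1.07, miR-199a-5p at -0.41 and miR-125b-5p at -0.13, the last at 0.14 with library totals. With a library left out, miR-10a-5p lay between -0.77 and -0.34 and miR-181b-5p between -1.23 and -0.70. The calls of miR-21a-5p, miR-9-3p and miR-223-3p were lost without HFD EV library 1 or 2 or chow EV library 1 or 2, at adjusted p-values of 0.0555 to 0.108.

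In hippocampus 12 of the 15 induced miRNAs were tested, none rose and 1 fell. Their median log2 fold change was -0.28 beside -0.13 for all 552 tested, of which 7.43% were called lower. miR-132-3p, an activity-regulated miRNA of neurons, fell to 792 ± 21.4 CPM in HFD hippocampus, against 1567 ± 486 CPM in chow hippocampus (log2 fold change -0.99, SE 0.23, adjusted p = 0.0326). Its call was held without chow library 3 alone among the 6 omissions, and adjusted p-values without the others were 0.0573 to 0.201. The call was also lost with library totals (-0.88, adjusted p = 0.124) and in the 12-library fit (-1.08, adjusted p = 0.0763). miR-9-5p, the most abundant hippocampal miRNA, had a log2 fold change of -0.37 (SE 0.31), miR-21a-5p -0.44 (SE 0.29), miR-9-3p 0.54 (SE 0.28) and miR-99b-5p 0.15 (SE 0.19), none of which passed. Without chow library 3, miR-9-5p was at 0.071 and miR-21a-5p at 0.026, while miR-9-3p was at 0.89 and passed (adjusted p = 0.0458).

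All 8 miRNAs acting on the pathway were tested in hippocampus, where 1 rose and none fell at a median of -0.03. Of all 552 miRNAs tested there, 24 rose. miR-125b-5p, which represses tumour necrosis factor in mouse macrophages, averaged 7440 ± 1492 CPM in HFD and 4003 ± 391.7 CPM in chow hippocampus (log2 fold change 0.89, SE 0.20, adjusted p = 0.0292). It was called without HFD library 2 and without chow library 3, and its adjusted p-values without HFD library 1 or 3 or chow library 1 or 2 were 0.0642 to 0.103. In the 12-library fit its adjusted p was 0.112. miR-10a-5p was at -1.98 (SE 0.58, adjusted p = 0.0648), miR-181b-5p at 0.35 (adjusted p = 0.319) and miR-16-5p at -0.46 (adjusted p = 0.216). miR-10a-5p passed without chow library 1 (-2.39, adjusted p = 0.0232), with DESeq2 (-1.89, adjusted p = 0.00625) and in the 12-library fit (-1.90, adjusted p = 0.0121), and was at -1.09 without chow library 3. With a library left out, miR-181b-5p lay between 0.25 and 0.62 and miR-16-5p between -0.52 and -0.20. Of all 23 listed miRNAs, none was called in both EVs and hippocampus.

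**Figure D4:**
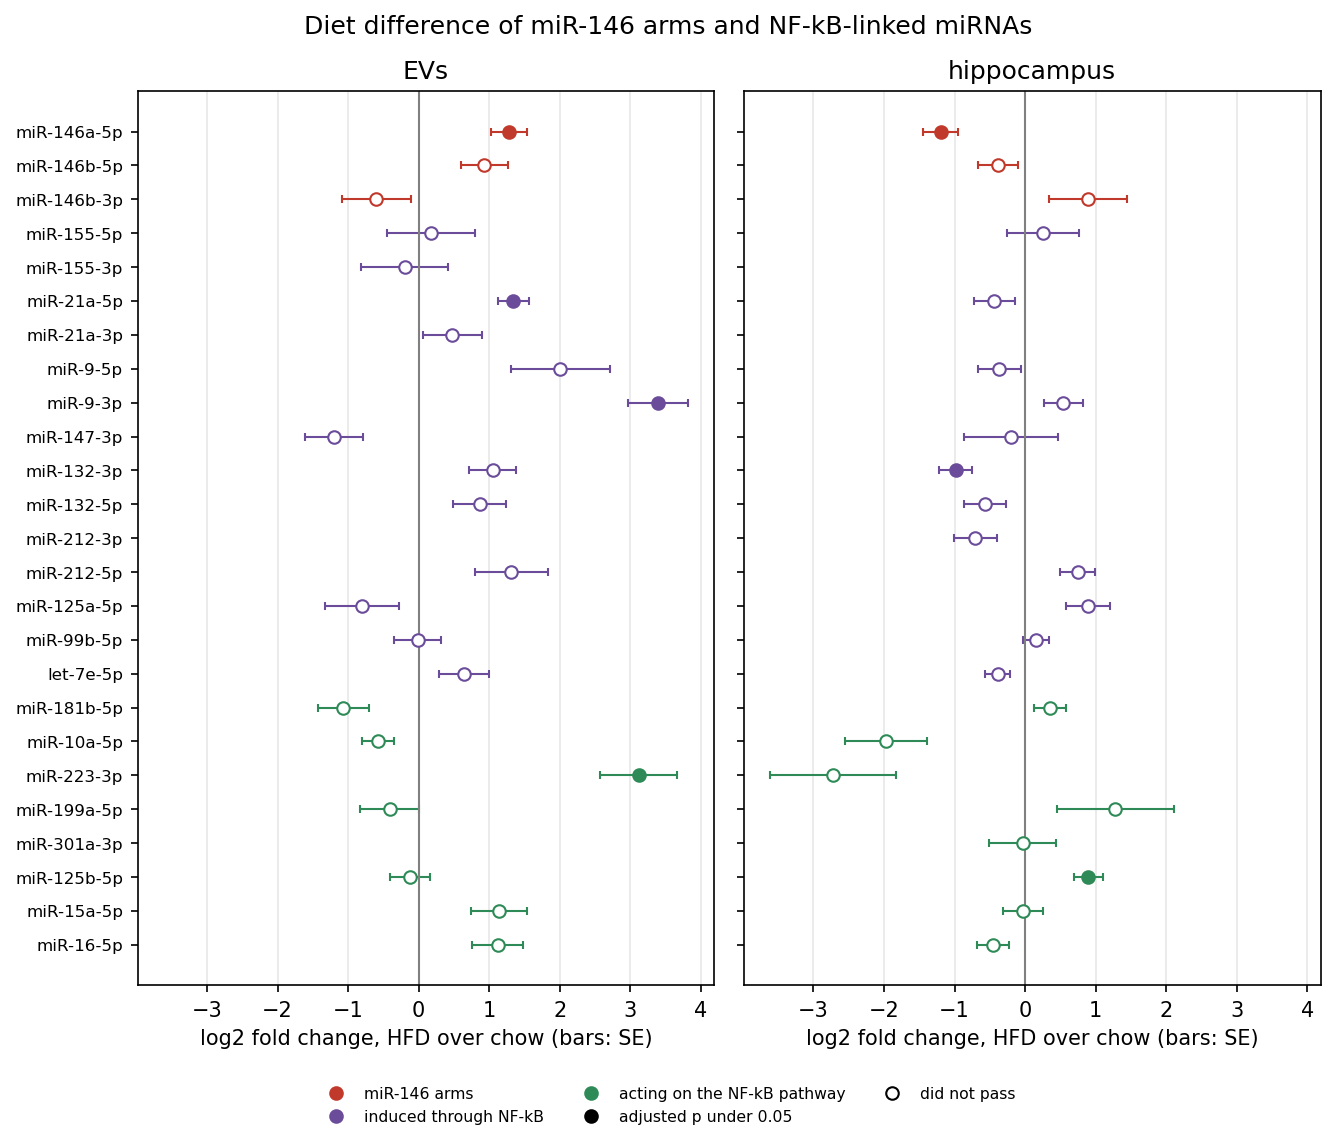
HFD over chow log2 fold change (x axis, bars of 1 SE) of the 3 tested miR-146 arms, of miRNAs induced through NF-kB and of miRNAs acting on the pathway, in EVs (left) and hippocampus (right), with filled points at an adjusted p under 0.05 and no point where a miRNA was not tested. In EVs the filled points are miR-146a-5p, miR-21a-5p, miR-9-3p and miR-223-3p, all above 0, and in hippocampus they are miR-146a-5p and miR-132-3p below 0 and miR-125b-5p above 0.

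Among cell markers in EVs, the leukocyte miRNAs were higher with HFD, as miR-146a-5p was, and the endothelial arms were lower. The 5 leukocyte miRNAs miR-142a-5p, miR-142a-3p, miR-223-3p, miR-150-5p and miR-342-3p summed to 2553 to 6483 CPM in HFD and 737 to 1193 CPM in chow EVs, 3 of the 5 rose, none fell and none was at 0 in any EV library. Their median log2 fold change was 2.43, beside -0.13 for all 389 miRNAs tested, of which 3.34% were called higher. The 2 endothelial arms of miR-126a summed to 967 to 1036 CPM in HFD and 2425 to 2617 CPM in chow EVs, and 1 of them fell. Of all 389 miRNAs tested in EVs, 4 fell. The sums of the 4 red cell, 4 neuronal and 4 epithelial miRNAs overlapped between diets in EVs, and none of those lists had a called member. Epithelial miRNAs of the miR-200 family were at 12136 to 15442 CPM in HFD and 13601 to 25531 CPM in chow EVs, and the oligodendrocyte pair miR-219a-2-3p and miR-338-3p at 1.41 to 2.77 CPM in HFD and 0 to 2.42 CPM in chow EVs. The part of these cells in the rise of miR-146a-5p was not tested.

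In hippocampus the 5 leukocyte miRNAs summed to 322 to 360 CPM in HFD and 343 to 832 CPM in chow libraries, which overlapped, and all 5 had log2 fold changes below 0 (median -0.90) with none past the test. The median of all miRNAs tested there was also below 0, at -0.13. The 4 red cell miRNAs summed to 79.9 to 162 CPM in HFD and 247 to 643 CPM in chow hippocampus, and 1 of them, miR-451a, fell. Of all 552 miRNAs tested in hippocampus, 24 rose and 41 (7.43%) fell. The 2 miR-126a arms summed to 5610 to 5784 CPM in HFD and 4290 to 5187 CPM in chow hippocampus, and 1 of them rose. The sums of the 4 neuronal, 2 oligodendrocyte and 4 epithelial miRNAs overlapped between diets. Of these lists, miR-338-3p of the oligodendrocyte pair rose (log2 fold change 0.85, SE 0.23, adjusted p = 0.0489), no neuronal miRNA was called, and the 3 epithelial miRNAs tested were all below 0 (median -0.72) with none past the test. The part of these cells in the fall of miR-146a-5p was not tested.

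The miRNAs whose pattern over the 6 libraries was most like that of a guide strand were looked up among those with a mean of at least 100 CPM, by Pearson's r of log2 CPM. This is a description, in which all points share the libraries, their depth and the diet groups. The diets did not overlap for miR-146a-5p, so patterns close to it tend to differ by diet in the same direction. In EVs, of 160 compared with miR-146a-5p, the closest were let-7f-5p (r = 0.95), miR-9-3p (r = 0.94) and miR-142a-5p (r = 0.94), all of which rose with HFD, and miR-146b-5p came at place 13 (r = 0.87). Closest to miR-146b-5p in EVs were miR-9-5p (r = 0.94), miR-9b-3p (r = 0.94), which repeats the counts of miR-9-5p, and miR-150-5p (r = 0.93), none of which passed the diet test.

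In hippocampus, of 189 compared, those closest to miR-146a-5p were miR-30a-5p (r = 0.97), miR-488-3p (r = 0.96) and miR-335-3p (r = 0.95). Of these, miR-488-3p and miR-335-3p fell with HFD, and miR-30a-5p was at -0.95 (adjusted p = 0.0505). The likeness was again taken over both diets, so their shared direction follows in part from it. miR-146b-5p came at place 65 there (r = 0.55). Its own nearest patterns were again miR-9-5p and miR-9b-3p (r = 0.99 each), followed by miR-221-5p (r = 0.98), and none of these passed the diet test.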

How the data were processed

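Raw counts of reads per miRNA arm were deposited by the authors, with a column for each library and no normalisation, per the file headers. The submitters' processing notes name Bowtie and no version. The sources used here give no genome build, miRNA annotation, counting tool or read filter. Of the hippocampal rows, 5 were blank for HFD and were left out, and 1 column of per-sample values, headed as a 4th HFD library, matched no sample and was not used. The HFD and chow hippocampal columns may thus have been made apart, which cannot be told apart from diet. Replicate libraries differed beyond sampling noise (chi-square per degree of freedom 80.4 to 704). The main tests used edgeR 4.0.16 (R 4.3.3; filterByExpr, TMM, robust glmQLFit, two-sided glmQLFTest, Benjamini-Hochberg over all tested miRNAs at 0.05), after a test on simulated data. Each diet comparison used 6 libraries, and contrasts across tables used 12. Shares and ratios (0.5 added to counts) were tested by exact permutation with scipy 1.17.1. Alternatives were other scalings, DESeq2 1.42.0, no filter, robust fitting off, a block, thinning, near-identical rows counted once and omission of each library. Named beside the members were list miRNAs that passed or were among the 4 most abundant of a list, and the 3 nearest patterns. The members and lists were chosen with earlier results of these data known. A count of 3 or fewer was taken as the floor, which is 0.505 to 1.64 CPM in an EV library and 0.233 to 1.29 CPM in a hippocampal library. Intervals of counts cover counting error only.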

Additional observations from a re-analysis of the deposited data

Results flagged for a closer look

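The diet difference of mmu-miR-146a-5p ran in opposite directions in the 2 sample types. All 3 HFD libraries lay above all 3 chow libraries in EVs and below them in hippocampus. The test of the difference itself gave 2.54 on the log2 scale (adjusted p = 0.00108, edgeR's quasi-likelihood test over 12 libraries). With a library left out, the call was kept in 1 of 6 fits in EVs and in 2 of 6 in hippocampus. The call of the difference was kept in 12 of 12. Diet cannot be told apart from the depth and blank rows of the columns in hippocampus, and so in the difference.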

How the results depend on the processing

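In EVs, the 17 miRNAs called became 38 with library totals, 29 with DESeq2's size factors, 56 with no filter, 55 with DESeq2, 31 with near-identical rows counted once and 38 in the 12-library fit. They were 0 to 21 with a library left out. The count was 0 without HFD library 1 or 2 or chow library 1 or 2, with 66 to 95 miRNAs at an unadjusted p under 0.05 in edgeR. miR-146b-5p passed with library totals (1.30) and with no filter (1.16, adjusted p = 0.0146). Log2 fold changes with a library left out were 1.16 to 1.60 for miR-146a-5p and 0.74 to 1.32 for miR-146b-5p.

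In hippocampus, the 65 called became 33 with library totals, 109 with DESeq2, 29 in the 12-library fit and 8 to 123 with a library left out, 8 without HFD library 1, 38 without HFD library 2, 9 without HFD library 3, 33 and 23 without chow libraries 1 and 2 and 123 without chow library 3. miR-146a-5p lost its call with library totals (-1.02) and lay between -1.29 and -0.97 with a library left out, and miR-146b-5p between -0.57 and 0.052. The 30 called for the difference of the diet effects became 46 with DESeq2's size factors, 76 with DESeq2 and 15 to 42 with a library left out, 15 without HFD EV library 2. There miR-146b-5p passed with library totals (1.47) and lay between 0.86 and 1.55 with a library left out. Shares and ratios kept their sign, and with a library left out the diet difference lay between 1.17 and 1.67 percentage points for the EV share, -0.030 and -0.0076 for the hippocampal share (-0.0076 without chow library 3), 1.49 and 1.76 on the log2 scale for the miR-146b arm ratio, and 0.13 and 0.60 in EVs and -1.02 and -0.57 in hippocampus for the paralog ratio. In the contrasts of EVs with hippocampus the guide strands kept direction and call under all 18 alternatives.

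Among list miRNAs in EVs, signs turned for miR-125b-5p (0.14 with library totals, 0.085 with no filter, 0.021 with near-identical rows once, and -0.23 to 0.20 with a library left out) and for miR-99b-5p (0.24 with library totals, 0.011 with size factors and with DESeq2, 0.20 with no filter, 0.0092 with thinning, 0.13 with near-identical rows once, 0.031 in the 12-library fit and -0.22 to 0.29 with a library left out). With a library left out, miR-155-5p lay between -0.40 and 1.07 and miR-199a-5p between -0.61 and 0.27 in EVs, and miR-21a-5p between -0.59 and 0.026 and miR-9-5p between -0.53 and 0.071 in hippocampus. The causes were not tested.

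Deviations of same-numbered libraries from their group means correlated at -0.04, -0.23 and -0.27 in EVs and 0.049, -0.45 and 0.098 in hippocampus. Those of different-numbered libraries ranged from -0.198 to 0.329 in EVs and from -0.292 to 0.386 in hippocampus. With 3 libraries per group these values cannot decide whether the numbers pair the samples. With the number as a replicate block, miR-146a-5p was at 1.26 in EVs (adjusted p = 0.0600) and -1.17 in hippocampus (adjusted p = 0.0504), the calls numbered 9 in EVs and 35 in hippocampus, miR-99b-5p was at 0.014 in EVs, and in hippocampus miR-132-3p (adjusted p = 0.0552) and miR-125b-5p (adjusted p = 0.0730) lost their calls. The difference of the diet effects of miR-146a-5p kept its call under the block (2.52, adjusted p = 0.00166).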
